A study of Mus musculus with 14 samples.

Results

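Regulatory T cells are a branch of CD4+ T cells that restrain immune responses. They are defined by the transcription factor Foxp3 and by a high surface level of the interleukin-2 receptor alpha chain (Il2ra, CD25), through which they bind interleukin-2. This account follows 8 genes of that programme: the transcription factors Foxp3 and Ikzf2, the interleukin-2 receptor gene Il2ra, the co-inhibitory receptor gene Ctla4, the costimulatory receptor genes Icos, Tnfrsf4 and Tnfrsf18, and Irak3, an inhibitor of Toll-like and interleukin-1 receptor signalling best known from monocytes and macrophages. The genes were taken by symbol, each represented by its brightest probe set (highest mean of the 14 arrays) among those annotated to that symbol alone, and they are 8 of 19937 genes so represented. Each of the 8 had only 1 such probe set. They were chosen with their values on these arrays known, mainly for their level on 1 spleen array described next, so those levels are given as a description with no test.

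Expression was measured on 14 single-colour Affymetrix arrays of total RNA from T cells sorted from C57BL/6 mice. Thymocytes carrying both CD4 and CD8 came from wild type (WT) mice (n = 3: replicates 38 and 32, male, and 7, female, all 7 months old) and from mice labelled ENK KO (n = 2: replicate 29, a 7-month-old male, and replicate 1, a 2-month-old female). CD8+ T cells came from the spleen of WT mice (n = 4: replicates 40, 37 and 34, labelled male, and 22, labelled female, all 7 months old) and of ENK KO mice (n = 5: replicates 31, 28 and 25, males of 7, 6 and 9 months, and 6 and 3, 2-month-old females). What ENK stands for is not spelled out in the labels, which give no transgene, treatment or promoter, while the series title names Engrailed-2. They do not state that each sample is a separate animal, so p-values measure only the spread between these samples. All values below are log2 expression units, on which a difference of 1 is a doubling of signal, and the array medians lay between 7.14 and 7.25. No detection calls were used here, so a low value was not told apart from background.

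Defining markers went against the labels on 2 arrays. On the array labelled spleen ENK KO replicate 28, called array 28 below, the co-receptor gene Cd4 stood at 12.20, while 6.92 was its highest value among the other 8 spleen arrays. The CD8 co-receptor genes Cd8a (6.78) and Cd8b1 (9.10) were low there, with minima of 12.06 and 13.20 elsewhere in spleen. The array thus went against its CD8+ label, and comparisons that include it are given with and without it. Cd3e, which encodes a CD3 chain of the T cell receptor complex, was at 13.06 to 13.27 on all spleen arrays. The recombinase gene Rag1 was at 12.83 or above on the 5 thymus arrays and at most 6.36 in spleen. Spleen WT replicate 22, labelled female, had an Xist value of 5.90, far under the 12.36 or more of the remaining 4 arrays with that sex label, and its Y-linked Kdm5d was at 9.85. The fits were repeated without it.

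Promoter sequence places the genes that stood farthest apart on array 28. The RefSeq promoter table of the GRCm38.p6 assembly, with windows from 250 bases before to 50 bases after a gene's annotated start, held windows for 6 of the 8 genes, with none used here for Ikzf2 and Icos. Shown are Foxp3, Il2ra, Ctla4 and Irak3, the genes of the programme farthest above the other spleen arrays on array 28. The windows of Foxp3 are chrX:7579426-7579725 and chrX:7580233-7580532 (both on the plus strand), that of Il2ra is chr2:11642542-11642841 (plus strand), that of Ctla4 is chr1:60908775-60909074 (plus strand), and those of Irak3 are chr10:120201548-120201847 and chr10:120202081-120202380 (both on the minus strand). Each is written 5′ to 3′ along its gene, in lower case, with matches to the motifs searched in capitals:
Foxp3 window 1: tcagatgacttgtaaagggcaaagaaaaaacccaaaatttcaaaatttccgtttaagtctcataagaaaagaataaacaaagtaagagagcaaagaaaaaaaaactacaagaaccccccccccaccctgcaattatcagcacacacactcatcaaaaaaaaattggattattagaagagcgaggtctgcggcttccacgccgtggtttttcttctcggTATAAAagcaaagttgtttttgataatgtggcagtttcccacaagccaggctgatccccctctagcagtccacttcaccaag
Foxp3 window 2: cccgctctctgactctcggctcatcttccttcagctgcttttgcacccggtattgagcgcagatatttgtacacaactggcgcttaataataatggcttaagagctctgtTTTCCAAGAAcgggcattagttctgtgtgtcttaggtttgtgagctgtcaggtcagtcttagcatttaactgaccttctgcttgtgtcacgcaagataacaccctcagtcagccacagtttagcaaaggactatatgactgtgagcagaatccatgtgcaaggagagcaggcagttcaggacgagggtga
Il2ra: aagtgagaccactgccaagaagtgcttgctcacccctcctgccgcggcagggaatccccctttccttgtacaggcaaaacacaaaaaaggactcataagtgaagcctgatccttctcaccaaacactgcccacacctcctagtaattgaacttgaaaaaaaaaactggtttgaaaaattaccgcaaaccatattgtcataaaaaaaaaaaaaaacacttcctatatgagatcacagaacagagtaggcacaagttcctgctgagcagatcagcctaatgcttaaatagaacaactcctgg
Ctla4: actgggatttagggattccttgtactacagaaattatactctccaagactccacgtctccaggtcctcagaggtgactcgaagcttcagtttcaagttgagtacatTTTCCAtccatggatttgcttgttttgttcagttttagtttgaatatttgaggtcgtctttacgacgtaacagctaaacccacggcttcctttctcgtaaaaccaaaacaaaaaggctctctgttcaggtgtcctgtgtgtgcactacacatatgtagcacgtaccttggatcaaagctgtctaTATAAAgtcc
Irak3 window 1: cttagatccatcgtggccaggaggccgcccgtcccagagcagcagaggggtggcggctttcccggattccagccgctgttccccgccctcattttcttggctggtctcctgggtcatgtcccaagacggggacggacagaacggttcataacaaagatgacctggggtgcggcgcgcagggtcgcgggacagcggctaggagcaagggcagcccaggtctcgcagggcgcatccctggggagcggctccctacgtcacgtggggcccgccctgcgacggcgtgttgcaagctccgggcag
Irak3 window 2: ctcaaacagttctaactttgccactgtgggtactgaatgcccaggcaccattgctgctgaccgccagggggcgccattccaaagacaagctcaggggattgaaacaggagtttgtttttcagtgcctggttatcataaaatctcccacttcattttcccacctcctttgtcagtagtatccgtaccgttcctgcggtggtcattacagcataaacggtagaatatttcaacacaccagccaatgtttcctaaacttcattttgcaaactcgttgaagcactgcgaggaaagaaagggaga

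Exact matches on either strand were sought for 7 motifs. In window 1 of Foxp3 the capitals are a TATA box (TATAAA, at position -32, the start base being 0), which 13.6% of the 32851 windows in the table hold. In its window 2 they are an NFAT motif (TGGAAA, read on the other strand) overlapping a STAT motif (TTCNNNGAA), at positions -140 and -139. These motifs are present in 21.4% and 8.30% of all windows. In Ctla4 the capitals are an NFAT motif at position -144 and TATAAA at position 40, which lies after the start. The windows of Tnfrsf4 and Tnfrsf18, genes of the tumour necrosis factor receptor family that are direct neighbours on chromosome 4, held an NFAT motif at position -220 and a STAT motif at position -99. The forkhead motif GTAAACA (3.65% of windows), the RUNX motif TGTGGT (16.8%), the NF-kB motif (0.155%) and the cyclic AMP element TGACGTCA (1.79%) matched in none of the 8 windows, and no motif searched matched in those of Il2ra or Irak3. G and C made up 67.3% of window 1 of Irak3 and 40.7% of window 1 of Foxp3, against a median of 52.7% over all windows. Ctla4 lies between Cd28 and Icos in the order of protein-coding genes on chromosome 1, where Ikzf2 also lies.

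Array 28 carried more signal than any other spleen array for 7 of the 8 genes, by widely differing amounts. The interleukin-2 receptor gene Il2ra was 19.0-fold above the mean of the other 8 spleen arrays, and the lineage factor Foxp3 5.51-fold. Irak3 was 5.15-fold, the co-inhibitory receptor gene Ctla4 4.88-fold and Ikzf2, which encodes the Ikaros family factor Helios, 3.12-fold above that mean. The costimulatory receptor genes stood closer, at 1.76-fold for Tnfrsf4 (OX40), 1.44-fold for Tnfrsf18 (GITR) and 1.45-fold for Icos. The other 8 spleen arrays averaged 6.90 for Il2ra and 7.41 for Foxp3. These levels were not told apart from background, so the folds of Il2ra and Foxp3 are uncertain in size. Array 28 lay at least 1 log2 unit above the highest other spleen array for 5 of the 8 genes, and 34 of 13641 genes tested (0.249%) did so. It lay above the others by any amount for 7 of the 8, against 15.0% of genes, and below them for 0 of the 8, against 17.9%. The genes were chosen with these values known, so nothing is read from either count. No array is labelled as spleen CD4+ cells, so array 28 could not be set against conventional CD4 cells, and with RNA of a whole sorted sample, a larger share of expressing cells and more RNA per cell cannot be told apart.

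**Figure D1:**
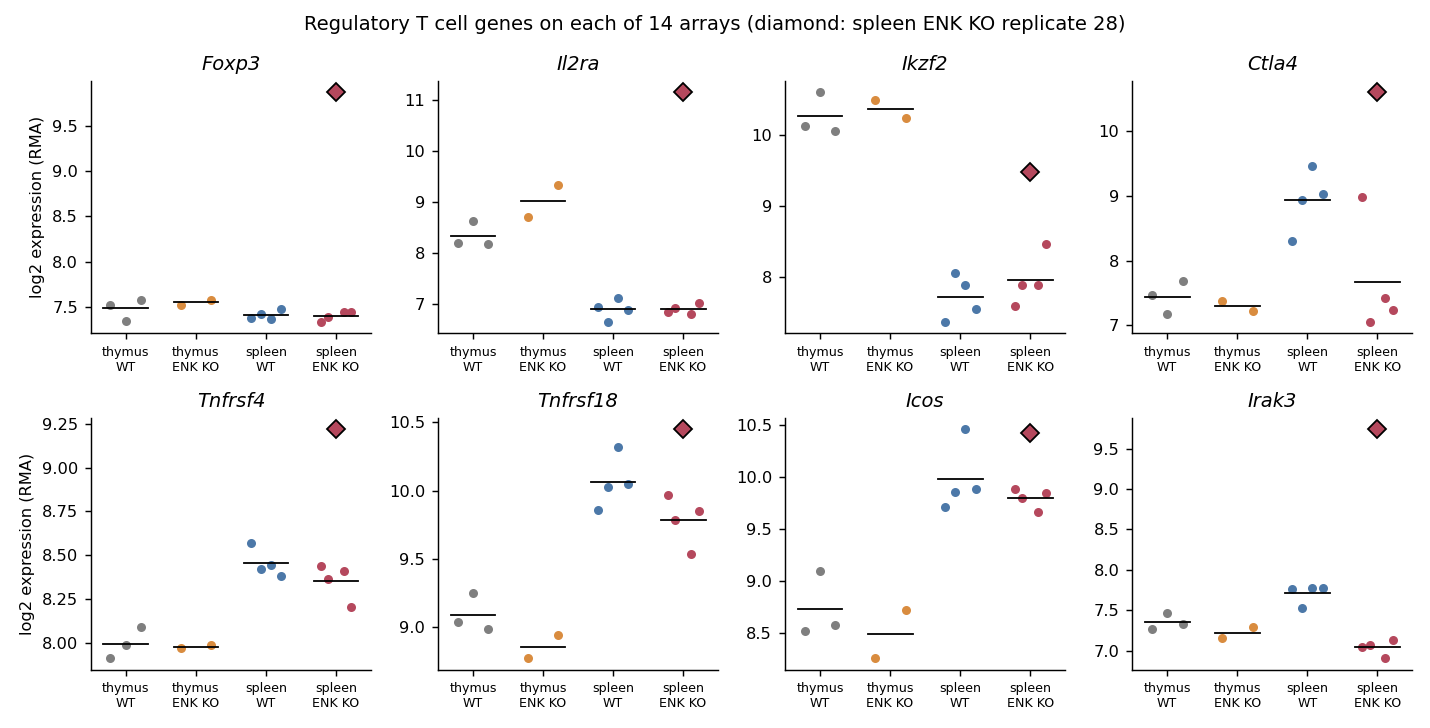
Log2 expression of the 8 genes on each array, by group, with the diamond marking array 28 and the bar the mean of each group (array 28 left out of the spleen ENK KO mean). Array 28 lies above the other spleen arrays in each panel except Icos, where spleen WT replicate 34 is higher, and each vertical axis has its own range.

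Foxp3, the factor that fixes regulatory T cell identity, was at 7.38, 7.42, 7.37 and 7.48 on spleen WT arrays 40, 37, 34 and 22, and at 7.34, 7.38, 7.44 and 7.44 on ENK KO arrays 31, 6, 25 and 3. It was at 9.87 on array 28. The other 8 arrays thus lay close together whatever their genotype, a little above the array medians of 7.14 to 7.25. At such levels expression was not told apart from background. Array 28 lay 2.39 above the highest of the other 8. This gap ranked 5 among the upward gaps of the genes tested. In thymus Foxp3 was at 7.52, 7.35 and 7.58 in WT (replicates 38, 7 and 32) and at 7.52 and 7.58 in ENK KO (29 and 1), so that array 28 lay 2.29 above the highest thymus array too.

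Il2ra was at 6.94, 6.66, 7.12 and 6.88 on the spleen WT arrays, in the same order, and at 6.84, 6.92, 6.80 and 7.03 on the ENK KO arrays other than 28. These values lay below the array medians of 7.14 to 7.25, a level not told apart from background. On array 28 Il2ra was at 11.14, a gap of 4.02, the third largest upward after Cd4 (5.28) and the sialyltransferase gene St8sia6 (4.35). Thymocytes lay between, at 8.19, 8.63 and 8.18 in WT and 8.71 and 9.34 in ENK KO. Every thymus array was above the 8 ordinary spleen arrays and below array 28.

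Ikzf2 was at 7.37, 8.05, 7.88 and 7.55 in spleen WT and at 7.60, 7.88, 7.88 and 8.46 in spleen ENK KO without array 28, which stood at 9.48. Thymocytes were higher than all spleen arrays, array 28 included, at 10.13, 10.60 and 10.05 in WT and 10.50 and 10.25 in ENK KO. Ikzf2 was the 1 gene of the 8 for which array 28 lay below every thymus array, at -0.58 from the lowest of them.

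Ctla4, which competes with Cd28 for its ligands and so restrains T cells, varied most among the ordinary spleen arrays. It was at 8.30, 8.93, 9.46 and 9.03 in WT and at 8.98, 7.06, 7.42 and 7.24 in ENK KO without array 28. Array 28 stood at 10.59, a gap of 1.13 above the highest WT array. The thymus arrays, at 7.46, 7.17 and 7.69 in WT and 7.38 and 7.22 in ENK KO, overlapped spleen ENK KO arrays 6, 25 and 3 and lay below the 4 WT spleen arrays and ENK KO array 31.

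Among the costimulatory receptors, Tnfrsf4 was at 8.57, 8.42, 8.44 and 8.38 in spleen WT, at 8.44, 8.36, 8.41 and 8.20 in spleen ENK KO, and at 9.22 on array 28. Tnfrsf18 was at 9.86, 10.03, 10.32 and 10.05 in WT, at 9.97, 9.78, 9.54 and 9.85 in ENK KO, and at 10.45 on array 28, only 0.13 above WT array 34. Icos was at 9.72, 9.86, 10.46 and 9.89 in WT, at 9.88, 9.80, 9.66 and 9.85 in ENK KO, and at 10.43 on array 28, just below WT array 34. WT array 34 was the highest of the 8 ordinary spleen arrays for Il2ra, Ctla4, Tnfrsf18 and Icos. The genes just inside and just outside the 1-unit gap were Ikzf2 at 1.01 and Tnfrsf4 at 0.65.

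Irak3 was at 7.77, 7.53, 7.77 and 7.77 in spleen WT and at 7.05, 7.08, 6.91 and 7.13 in spleen ENK KO without array 28. Array 28 was at 9.74, 1.96 above the highest WT array. The thymus arrays stood at 7.27, 7.47 and 7.33 in WT and 7.16 and 7.29 in ENK KO, between the WT and the ENK KO spleen arrays.

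**Figure D2:**
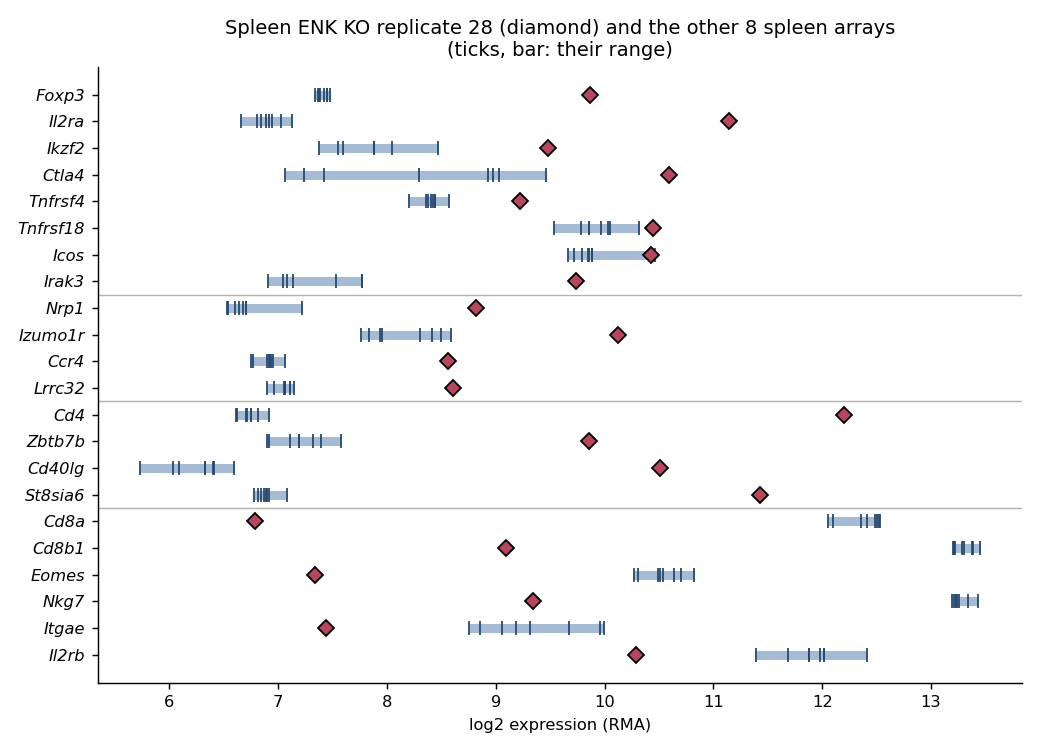
Log2 expression on array 28 (diamond) and on the other 8 spleen arrays (ticks, with a bar over their range), for the 8 genes, then other regulatory T cell genes, CD4 lineage genes, and CD8 lineage and cytotoxic genes with Itgae and Il2rb. Il2ra and Cd4 lie 4.02 and 5.28 above the range, while Cd8a lies 5.27 below it.

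For other genes linked to regulatory T cells, array 28 lay above, within or below the range of the other spleen arrays. Of 28 such genes 27 were measured and 22 tested. Array 28 lay at least 1 unit above the other spleen arrays for 4 of them: Nrp1, a semaphorin co-receptor, by 1.60 (8.82 against 6.53 to 7.22), Izumo1r, the folate receptor 4 gene, by 1.54, the chemokine receptor gene Ccr4 by 1.50, and Lrrc32, which encodes the GARP protein that displays latent TGF-beta, by 1.46. At least 1 unit above lay 0.249% of all genes. Array 28 lay above the range by any amount for 15 of the 22 (15.0% of all genes), below it for 2 (17.9%) and within it for 5. The list was chosen with earlier results of these data known, so nothing is read from these counts. Itgae, the alpha E integrin carried by many CD8 T cells and by some regulatory T cells, was lower on array 28, at 7.44 against at least 8.76. The median difference from the mean of the other 8 was 0.47 over the 22 genes, against -0.0045 over all genes tested and 1.96 over the 8 genes.

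The remaining lists set the 8 genes in their pathways. On array 28, 15.0% of all genes tested lay above the range of the other spleen arrays and 17.9% below it, by any amount. At least 1 unit outside lay 0.249% above and 0.381% below. Nothing is read from the counts of these lists. Among 8 tested genes that regulatory T cells usually express at a low level, 0 lay a unit outside the range, with Igfbp4 0.65 above and Pde3b, a phosphodiesterase gene, 0.75 below it. Of 14 regulators and partners of Foxp3, 0 lay a unit outside, and 5 lay above by less, led by Runx1 (0.76), Gata3 (0.41) and Stat5b (0.38). Along the interleukin-2 receptor pathway, 0 of 7 other genes tested lay a unit above, where 0.249% of all genes did. The beta chain gene Il2rb, higher in memory and cytotoxic CD8 cells, lay 1.10 below, and the feedback inhibitor gene Cish 0.50 above. Cd28, the activating counterpart of Ctla4, lay 0.19 above the range, as 1 of 5 of the 7 tested costimulation partners that lay above it by less than a unit. In the Toll-like and interleukin-1 receptor pathway around Irak3, 0 of 10 lay a unit outside. Il18rap, a chain of the interleukin-18 receptor, was 0.90 and Tlr2 0.27 below, and the kinase gene Irak2 0.27 above.

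Lineage genes moved with these values. Of 6 CD4 lineage genes tested, Cd4, Zbtb7b, the factor that fixes the CD4 fate (gap 2.28), and St8sia6 lay at least 1 unit above the other spleen arrays. Of all genes 0.249% did so. The lists were chosen with earlier results of these data known, so nothing is read from how many of their genes lay outside. Cd40lg, the helper cell ligand of CD40, was at 10.51 against at most 6.60, and was not tested because it was high on a single array. Of 8 CD8 lineage and cytotoxic genes, 7 lay at least 1 unit below, among them Cd8a (-5.27), Cd8b1 (-4.11), the cytotoxic granule gene Nkg7 (-3.85) and Eomes, a factor of memory and cytotoxic cells (-2.94), and Runx3, which fixes the CD8 fate, lay 0.76 below. Over all genes tested, 52 (0.381%) lay at least 1 unit below. By the same measure each of the other 8 spleen arrays had 0 to 4 genes above and 0 to 7 below the rest. The 10 largest upward gaps also held Adh1 (2.50), the transcription factor gene Maf (2.10), Pdlim4 (1.94) and the integrin gene Itgb3 (1.91), and the 10 largest downward gaps Atp8b4 (-3.75), the gut-homing receptor gene Ccr9 (-2.99), Klrd1 (-2.94), Racgap1 (-2.60), Ctsw (-2.31) and Crtam (-2.13). Of the other cell types a sort could hold, 9 B cell, 9 myeloid, 6 dendritic, 2 NK and 5 platelet and red cell genes were tested, and 0 lay a unit outside. The mean of the 12 myeloid genes was 7.29 on array 28, within the 6.94 to 7.60 of the other 8.

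Between the genotypes in spleen, Irak3 was the 1 gene of the 8 that passed, and only without array 28. In spleen ENK KO against WT over all 14 arrays, 0 of the 8 genes had an unadjusted limma p under 0.05, beside 1142 of all genes tested. Limma called 0 of the 8 there, beside 1 of 13641 genes (0.00733%). Without array 28 it called 1 of the 8, Irak3, beside 2 genes in all (0.0147%). Of the 8, 3 then had an unadjusted limma p under 0.05 (Irak3, Ctla4 and Tnfrsf18), as did 1326 of all 13641 genes tested. The log2 difference lay below 0 for 7 of the 8, with a median of -0.14 against -0.0083 over all genes. The 8 were chosen with their values on these arrays known and were not tested as a set, so nothing is read from these counts. With all arrays the log2 difference was 0.48 (SE 0.42, limma adjusted p = 0.753) for Foxp3 and 0.85 (SE 0.73, limma adjusted p = 0.752) for Il2ra, and without array 28 it was -0.0084 (SE 0.05, adjusted p = 0.967) and -0.0043 (SE 0.14, adjusted p = 0.992). Array 28 alone therefore set the sign and size of these differences. Ikzf2 differed by 0.55 with and 0.24 without it, Tnfrsf4 by 0.073 and -0.10, Tnfrsf18 by -0.15 and -0.28, and Icos by -0.059 and -0.19. Their adjusted p by limma ran from 0.479 to 0.936 over both fits.

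**Figure D3:**
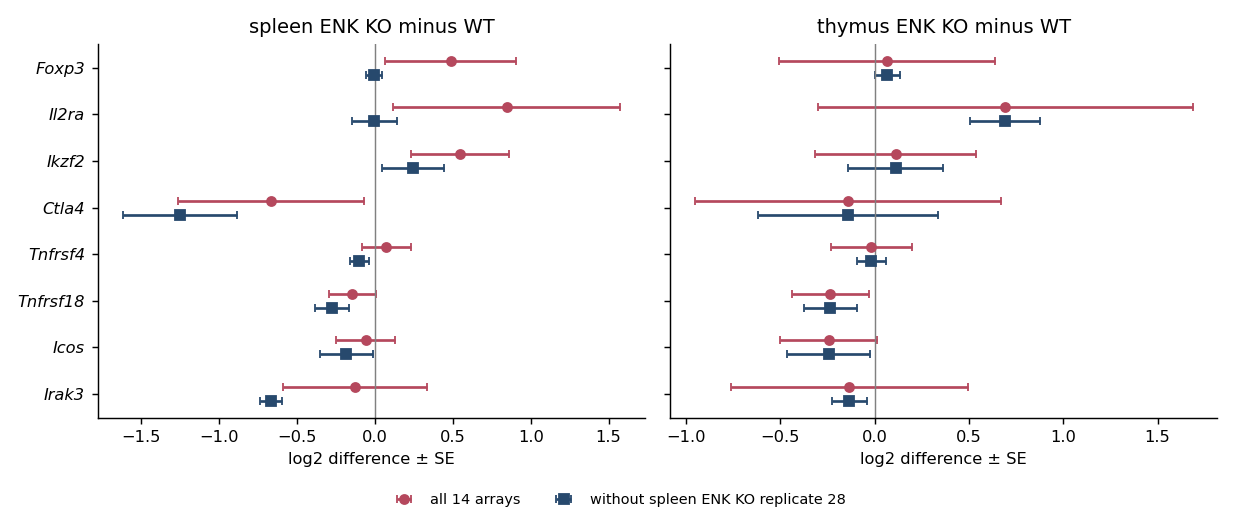
Log2 difference between ENK KO and WT for the 8 genes, in spleen on the left and thymus on the right, with the standard error from limma as bars. Circles use all 14 arrays and squares leave out array 28, which narrows every bar and takes Foxp3 and Il2ra in spleen to -0.0084 and -0.0043.

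Irak3 fell in spleen ENK KO without array 28. The WT mean was 7.71 ± 0.12 (SD, n = 4) and the ENK KO mean 7.04 ± 0.10 (SD, n = 4), a difference of -0.67 (SE 0.07, limma adjusted p = 0.00534), which is 1.59-fold lower. These ENK KO values, 6.91 to 7.13, lay below the array medians of 7.14 to 7.25, a level not told apart from background. All 4 ENK KO arrays lay below all 4 WT arrays, as they did for 195 genes (1.43%), while 0 of the 8 genes lay entirely above WT, against 2.13% of genes. With array 28 the difference was -0.13 (SE 0.46, limma adjusted p = 0.944). The adjusted p stayed between 0.00309 and 0.0399 when any further spleen array was left out, including 0.0393 without WT replicate 22. It was 0.0703 with spleen arrays alone and 0.0773 without the 2-month-old animals, where the difference was -0.73. Those animals gave the only spleen arrays that were female by both label and Xist. Sex, age and genotype thus cannot be fully told apart here. In thymus Irak3 differed by -0.13 (SE 0.09 without array 28, limma adjusted p = 1), and the difference between the spleen and thymus effects was -0.53 (SE 0.12, limma adjusted p = 0.855), so an effect particular to spleen was not shown.

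Levels of other cell types beside Irak3 were as follows, and their part in its difference was not tested. The mean of the 12 myeloid genes was 7.13 to 7.29 in spleen WT and 6.94 to 7.60 in ENK KO without array 28, where 0 of 9 tested passed. The platelet and red cell mean was 7.66 to 7.75 in WT and 7.05 to 7.51 in ENK KO, ranges that did not overlap. Ppbp, a platelet chemokine gene, was the other gene called, at -1.56 (limma adjusted p = 0.00377). The B cell mean was 7.65 to 8.10 in WT and 6.99 to 8.07 in ENK KO, the dendritic mean 7.40 to 7.51 and 7.37 to 7.46, and the NK mean 5.64 to 5.92 and 5.49 to 5.79. Of the Toll-like and interleukin-1 receptor pathway genes, 0 of 10 passed, 8 of them lying below 0 with a median of -0.048, against -0.0083 over all genes.

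Ctla4 had a larger but less even difference. Without array 28 the WT mean was 8.93 ± 0.48 (SD, n = 4) and the ENK KO mean 7.67 ± 0.88 (SD, n = 4), a difference of -1.25 (SE 0.37) that did not pass (limma adjusted p = 0.459). ENK KO arrays 6, 25 and 3 lay below all 4 WT arrays, while ENK KO array 31 lay among them. Leaving out array 31 as well, a choice made after seeing the data, gave -1.69 (limma adjusted p = 0.0143), with 40 genes called in place of 2. Of those 3 low arrays, 2 came from 2-month-old females and array 25 from a 9-month-old male, while every WT animal was 7 months old. Array 31, among the WT arrays, came from a 7-month-old male. The other spleen array labelled female, WT replicate 22, went against that label by its Xist and Kdm5d values. Sex, age and genotype thus cannot be fully told apart here. The age covariate set 2 months against all other ages, so it did not adjust for the age of array 25. With this covariate the difference was -0.88 (limma adjusted p = 0.673) and without the 2-month-old animals -0.73 (limma adjusted p = 0.732). With all 14 arrays it was -0.67 (limma adjusted p = 0.761).

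**Figure D4:**
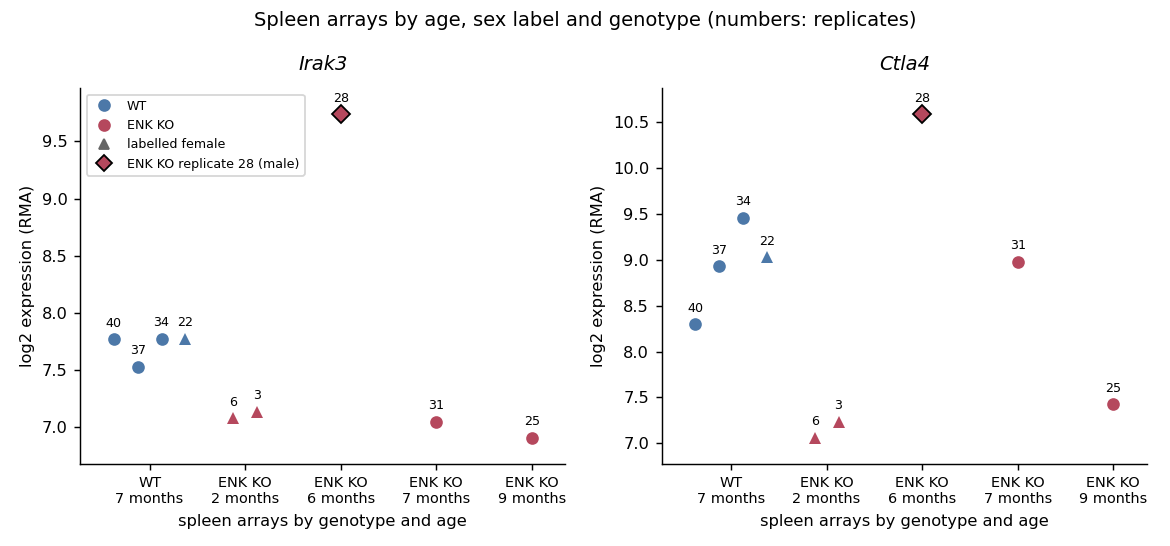
Log2 expression of Irak3 and Ctla4 on the 9 spleen arrays, placed by genotype and age, with the replicate number above each point and triangles for arrays labelled female. For Irak3 the 4 ENK KO arrays other than 28 lie at 6.91 to 7.13, below the WT arrays at 7.53 to 7.77. Every WT animal was 7 months old, so age and genotype cannot be fully told apart. For Ctla4 ENK KO array 31 lies at 8.98 among the WT arrays.

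In thymocytes limma called 0 of the 8 genes between the genotypes over all 14 arrays (2 of 13641 genes, 0.0147%) and 0 without array 28 (5 genes, 0.0367%, with 0.022% higher). An unadjusted limma p under 0.05 was reached by 0 and 1 of the 8, beside 481 and 555 of all genes. Il2ra had the largest difference, from a WT mean of 8.33 ± 0.25 (SD, n = 3) to 9.02 ± 0.45 (SD, n = 2). Both ENK KO arrays lay above all WT arrays, as for 551 genes (4.04%), and the higher of them was the 2-month-old female. The difference of 0.69 had an SE of 0.99 with all arrays and 0.19 without array 28, since the groups share 1 estimate of the spread, and it did not pass either way (limma adjusted p = 1 and 0.695). Tnfrsf18 differed by -0.23 with both ENK KO arrays below the WT arrays, as for 711 genes (5.21%). The other 6 genes differed by -0.24 to 0.11, with overlapping groups.

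Without array 28, spleen CD8+ cells and thymocytes differed for most of the 8 genes, as they did for most genes tested. Between WT populations limma called 4 of the 8 with all arrays and 7 of the 8 without array 28, against 68.6% and 70.1% of all genes tested. Without array 28 the 7 were 5 higher (31.3% of all genes) and 2 lower (38.8%) in spleen. A call between these populations is thus the usual case, and it is not known here whether RMA was run over both tissues at the same time. Without array 28, Ikzf2 was lower in spleen by -2.55 (SE 0.21, limma adjusted p = 3.99e-07) and Il2ra by -1.43 (SE 0.15, limma adjusted p = 4.31e-06). The spleen values of Il2ra were not told apart from background. The costimulatory receptor genes were higher in spleen: Icos by 1.25 (limma adjusted p = 6.30e-05), Tnfrsf18 by 0.97 (1.25e-05) and Tnfrsf4 by 0.46 (5.11e-05). Ctla4 was higher by 1.49 (limma adjusted p = 0.00515) and Irak3 by 0.35 (limma adjusted p = 0.00133), while Foxp3 differed by -0.073 (limma adjusted p = 0.256). With all arrays Ikzf2, Icos, Tnfrsf18 and Tnfrsf4 kept their calls, and Ctla4, Il2ra and Irak3 did not pass (limma adjusted p = 0.0681, 0.143 and 0.566), their differences being the same because array 28 enters only the shared spread. In that fit the call of Tnfrsf4 (limma adjusted p = 0.0360) was lost without thymus WT replicate 38, 7 or 32 or spleen WT replicate 40, 37 or 34, with adjusted p from 0.0521 to 0.102.

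Without array 28, the ENK KO populations differed in the same direction as the WT populations for 5 of the genes called there. In that fit Ikzf2 differed by -2.42 (limma adjusted p = 2.66e-06), Il2ra by -2.13 (4.89e-07), Icos by 1.31 (0.000146), Tnfrsf18 by 0.93 (6.62e-05) and Tnfrsf4 by 0.37 (0.000794), 5 of the 8 called against 65.0% of all genes. Ctla4 (0.38, limma adjusted p = 0.482), Irak3 (-0.18, 0.0844) and Foxp3 (-0.15, 0.0564) did not pass. With all 14 arrays 4 of the 8 were called, against 64.4% of genes, and Il2ra lost its call at -1.28 (limma adjusted p = 0.235). Ikzf2, Icos, Tnfrsf18 and Tnfrsf4 then differed by -2.11, 1.43, 1.06 and 0.55 and were called. Foxp3 (0.35, limma adjusted p = 0.581) and Irak3 (0.36, 0.603) turned sign and Ctla4 was at 0.96 (0.276), none of them called. Of the called genes, Tnfrsf4 (limma adjusted p = 0.0257) lost its call without thymus ENK KO replicate 29 (0.108) or 1 (0.100). Over the 8 ordinary spleen arrays and the 5 thymus arrays, Tnfrsf4, Tnfrsf18 and Icos were entirely higher in spleen, as were 25.7% of genes, and Il2ra and Ikzf2 entirely lower, as were 33.2%. Among the other regulatory T cell genes, 13 of 22 were higher (31.3% of all genes) and 5 lower (38.8%) in WT spleen without array 28, the lower ones including Ccr4 (-3.24) and Nrp1 (-2.02) and the higher ones Itgae (2.77) and Izumo1r (1.40). Their median was 0.49, against -0.045 over all genes.

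**Figure D5:**
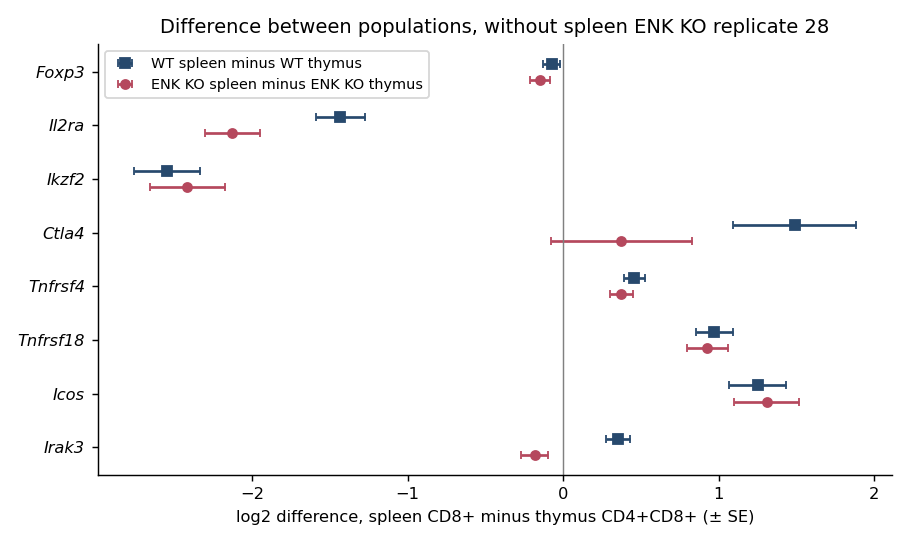
Log2 difference between spleen CD8+ cells and CD4+CD8+ thymocytes for the 8 genes, without array 28, in WT (squares) and ENK KO (circles), with the standard error from limma as bars. Il2ra and Ikzf2 lie to the left of 0, lower in spleen, and the 3 costimulatory receptor genes to the right in both genotypes.

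The genes with the most similar profiles were found by the root mean square difference over the 14 arrays after centring each gene, a description with no test. Foxp3 was closest to Pdlim4 and Maf (0.16 each) and then Tmem64 (0.24), and Irak3 to Maf (0.26), Tmem64 (0.27) and Foxp3 (0.29), profiles that all share the high value on array 28. Il2ra was closest to Nrp1 (0.68), Igsf23 (0.71) and Il1rl2 (0.77), all farther away than the neighbours of the other genes. Ikzf2 was nearest to Cers6 (0.29), Adcy6 (0.33) and Mtss1 (0.33), and Ctla4 to Fasl (0.45), Klf6 (0.49) and Dusp1 (0.50). Tnfrsf4 was nearest to Cabcoco1, Xylt1 and Socs2 (0.093 to 0.13), Tnfrsf18 to Acer2, Zdhhc2 and Sgpl1 (0.14 to 0.15), and Icos to P2rx4 (0.18), its fellow receptor gene Tnfrsf18 (0.20) and Myd88 (0.21).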

How the data were processed

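Expression was measured on 14 arrays. The deposited log2 values, 1 per probe set, came from RMA (background correction, quantile normalization and summary of probes), according to the submitters' processing notes. Software, genome build and which arrays RMA was run on together: not given in the sources used here. Sorted cells gave RNA of which 300 ng was amplified, per the labels' protocols.

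Of 28213 probe sets, 21640 had 1 symbol in the platform annotation, 1321 several and 5252 none in the table used, and 21553 were found by gene ID in RefSeq, with 0 symbols changed. Of 19937 genes, 13641 exceeded 6.76 (the 40th percentile) on at least 2 arrays and were tested. All 8 regulatory T cell genes passed, and their thymus values alone, at least 7.16, suffice for this.

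Group means were fitted with limma 3.58.1 (R 4.3.3), with a trend in the prior variance and all groups sharing 1 spread, with Benjamini-Hochberg adjustment over the genes tested and a threshold of 0.05. It was repeated without spleen ENK KO replicate 28. The alternatives were other filters and variance models, renormalized values, the mean of probe sets, each tissue alone, age of 2 months or sex as a covariate, no 2-month-old animals, and each array left out. On simulated data limma recovered 86 of 100 genes changed by 0.5 and 96 of 100 changed by 1 in the spleen comparison, with 6 false calls among 13641 genes. Noise was drawn independently for each gene and array, from a normal distribution with the gene's own mean and spread. The simulation held no shared array effect and no age or sex difference, and the fit without replicate 28 was not simulated, so recovery in the real data can be lower. The number of arrays limits precision.

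The 8 genes and the lists (other regulatory T cell genes, genes low in such cells, Foxp3 regulators, interleukin-2 receptor, costimulation and Toll-like receptor pathways, CD4, CD8, helper subset, core T cell, B cell, myeloid, dendritic, NK, platelet and red cell, and thymocyte markers) were chosen with earlier results of these data known. Named genes are the 8, up to 4 of each list and the 10 in each direction farthest outside the other spleen arrays on replicate 28, defining markers, list genes called between genotypes, and the 3 most similar profiles for each of the 8. The other marker genes given (Cd3e, Rag1, Xist and Kdm5d) and the list genes named between the populations were chosen after their values were seen.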

Additional observations from a re-analysis of the deposited data

Results flagged for a closer look

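Some arrays lay far from the rest of their group by Dixon's criterion. In spleen ENK KO this was replicate 28 for Foxp3 at 9.87, Il2ra at 11.14, Tnfrsf4 at 9.22, Icos at 10.43 and Irak3 at 9.74. The genes were chosen with these values known, so they are a description, and nothing is read from how many met the criterion. In spleen WT, replicate 37 stood apart for Irak3 at 7.53, the other 3 arrays lying at 7.77. The criterion picks out about 1 in 20 groups by chance. The difference of Irak3 without replicate 28 was -0.73 (limma adjusted p = 0.00309) when replicate 37 was left out as well.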

How the results depend on the processing

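No paired analysis was possible because no replicate number occurs in more than 1 group. Fits of replicate 28 together with another change were chosen after seeing the data. The position of replicate 28 hardly depended on the processing: over the alternatives 27 to 38 genes lay at least 1 unit above the other spleen arrays and 50 to 52 below. The depth of an array has no counterpart here, and values near the filter level are hard to tell from background.

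Counts of genes called between genotypes were small and unstable. Each tissue fitted alone gave 0 in spleen and 0 in thymus, age as a covariate 0 in spleen, 1 in thymus and 0 for the difference between the tissues, sex as labelled as a covariate 0 in spleen and 0 for that difference, and leaving out the 2-month-old animals 4 in thymus and 0 for that difference. With single arrays left out, 0 to 3 genes were called in spleen (3 without ENK KO replicate 31), 1 to 14 in thymus (14 without ENK KO replicate 29), 0 to 5 for the difference (5 without thymus ENK KO replicate 29), and 2 to 40 in spleen without replicate 28 (40 without ENK KO replicate 31). Without replicate 28, spleen arrays alone gave 0 and leaving out the 2-month-old animals 1.

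Some differences of the 8 genes turned sign, none of them past the threshold in either form. With age as a covariate, Irak3 was at 0.079 in spleen, 0.13 in thymus and -0.046 for the difference between tissues, and in thymus Ctla4 was at 0.53 and Tnfrsf4 at 0.12. With sex as a covariate Tnfrsf4 was at 0.013 in thymus. The sex fits counted spleen WT replicate 22 as female, as labelled, against its Xist and Kdm5d values. Without the 2-month-old animals Ctla4 was at 0.069, Icos at 0.0088 and Irak3 at 0.19 in spleen, and Ctla4 at 0.13 for the difference. After quantile normalization without replicate 28, Foxp3 was at 0.020 and Il2ra at 0.030 in spleen.

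With single arrays left out, the spleen difference ran from -0.0084 to 0.62 for Foxp3, -0.0043 to 1.08 for Il2ra, -0.19 to 0.10 for Icos, -0.67 to 0.040 for Irak3 and -0.10 to 0.15 for Tnfrsf4, and without replicate 28 from -0.023 to 0.014 for Foxp3 and -0.086 to 0.070 for Il2ra. In thymus it ran from -0.0012 to 0.11 for Foxp3, -0.017 to 0.28 for Ikzf2 and -0.059 to 0.030 for Tnfrsf4. The spleen effect minus the thymus effect ran from -0.075 to 0.56 for Foxp3, -0.048 to 0.42 for Icos, -0.70 to 0.47 for Il2ra, -0.53 to 0.17 for Irak3, -0.044 to 0.18 for Tnfrsf18 and -0.083 to 0.17 for Tnfrsf4. Between the ENK KO populations it ran from -0.15 to 0.48 for Foxp3 and -0.18 to 0.53 for Irak3. The cause of these changes was not tested. The Irak3 value of -0.67 is the 1 case here past the threshold, and it is the fit without replicate 28.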
